A study of Mus musculus with 20 samples.

Results

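NF-kappaB signalling downstream of the TNF receptors was followed through 10 genes in colonoid cultures from WT and Tnfr2-/- mice. The genes were chosen by symbol, with earlier results of these data known. They comprise the subunits Nfkb1, Nfkb2, Rela and Relb, the feedback genes Nfkbia, Nfkbiz and Tnfaip3, the adaptors Traf1 and Traf2, and Birc3. They were 10 of the 35240 genes with a symbol in the expression table, and all 10 were found there. Of these, 9 were among the 13539 genes tested, whose mean across libraries reached 1. Traf1 was not tested, because its mean was 0.808.

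NF-kappaB is a family of dimeric transcription factors held in the cytoplasm by inhibitory IkappaB proteins. When TNF binds a receptor, TRAF adaptors and cIAP ubiquitin ligases assemble at its tail and activate IKK kinases, which trigger the destruction of IkappaB and release RelA-p50 dimers into the nucleus (the canonical pathway). TNFR2, encoded by Tnfrsf1b, recruits TRAF2 directly, and its engagement can deplete TRAF2 and cIAP, which stabilises the kinase NIK and drives the processing of p100 to p52 (the non-canonical pathway). NF-kappaB dimers switch on their own inhibitors, and the amounts of Nfkbia, Tnfaip3 and Birc3 mRNA are widely used as readouts of the pathway's output.

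Colonoids are hollow epithelial structures grown in a gel matrix from colonic crypts, and these cultures were known from the study to hold stromal fibroblasts as well. WT cultures came from C57BL/6 mice and Tnfr2-/- cultures from whole-body knockouts (B6.129S2-Tnfrsf1b tm1Mwm/J), in both cases from the distal colon of male and female animals 8 weeks old. No treatment was given, and the cells of both genotypes had undergone 5 passages in Matrigel with IntestiCult medium before the time course, so that every group shares this long culture outside the animal. mRNA was sequenced from each genotype on 5 days of the time course, counted as days post-passage (DPP) and numbered 1, 2, 3, 5 and 7. There were 20 libraries in 10 groups, 2 per genotype and day, numbered 1 and 2 in the labels, and these numbers were read as naming 2 mice per genotype. The labels do not say that 1 animal gave the cultures of all 5 days. On this reading, which the results by mouse below rest on, the 5 libraries of a mouse are not independent of each other. DPP 1, 2 and 3 are called early and DPP 5 and 7 late.

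Values are TPM, a transcript abundance that corrects for transcript length and library total, after division by size factors, and are added up over the transcripts of a gene. They are called normalised expression here. They sum to between 900655 and 1111080 per library, and 13007 to 13469 genes reached a value of 1, depending on the library. The table does not give the read depth of each library. All 8 epithelial markers were present in every library, among them Epcam (361.7 to 1885) and Krt8 (3463 to 6607). The pan-leukocyte gene Ptprc did not exceed 0.753 in any library, and the endothelial gene Emcn was at 0 in all 20 libraries. The targeted gene, Tnfrsf1b, had 11.1, 14.3 and 21.9 as lowest, median and highest value in the 10 WT libraries and 2.71, 4.85 and 11.5 in the 10 Tnfr2-/- libraries. It was lower in both Tnfr2-/- libraries than in both WT libraries on each day, and fell by 1.35 on the log2 scale over all days (SE 0.167, adjusted p 9.72e-05), but its mRNA was not absent from the knockout.

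On GRCm38 (GENCODE M21), Nfkb1 lies at chr3:135584655-135691547, Nfkb2 at chr19:46304320-46312385, Rela at chr19:5637483-5648130 and Relb at chr7:19606217-19629438. Nfkbia lies at chr12:55489410-55492647, Nfkbiz at chr16:55811375-55838899 and Tnfaip3 at chr10:19000910-19015657. Traf1 lies at chr2:34941750-34961772, Traf2 at chr2:25517982-25546940 and Birc3 at chr9:7848699-7873186, and all 10 are annotated as protein-coding. The promoters of these genes are shown because NF-kappaB dimers recognise a 10-base kappaB motif, which was searched on both strands from 250 bases before to 50 bases after each transcription start in RefSeq (build GRCm38.p6). A promoter entry was matched for 7 of the 10 genes; Nfkb1, Relb and Nfkbiz had none. The motif was found in Nfkbia, Tnfaip3 and Nfkb2, and these letters were not found in the windows of Birc3, Rela, Traf1 and Traf2. Of 32851 promoters of all genes, 4.51% held at least 1 match, as did 5.14% of 27025 genes over all their starts. A match is a description of the sequence and not a bound site. For the 3 genes with a match, a stretch upstream of a start is given below with the matching bases in capitals, 5′ to 3′ along the gene's own strand. Overlapping matches are merged into 1 run of capitals. The stretches lie at chr12:55492648-55492772 (minus strand) for Nfkbia, chr10:19015412-19015536 (minus strand) for Tnfaip3 and chr19:46304612-46304736 (plus strand) for Nfkb2, the first of its 3 listed starts.
Nfkbia: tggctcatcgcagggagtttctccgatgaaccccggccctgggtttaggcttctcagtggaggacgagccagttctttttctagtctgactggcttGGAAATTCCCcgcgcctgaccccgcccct
Tnfaip3: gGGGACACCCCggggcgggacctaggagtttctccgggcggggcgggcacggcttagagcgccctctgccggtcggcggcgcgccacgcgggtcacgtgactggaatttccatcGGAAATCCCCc
Nfkb2: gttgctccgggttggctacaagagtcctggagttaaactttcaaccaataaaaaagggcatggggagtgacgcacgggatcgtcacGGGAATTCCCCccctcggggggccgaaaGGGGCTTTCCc
Nfkbia holds 1 run of capitals in this stretch, and Tnfaip3 and Nfkb2 hold 2 each. Counted from the start, the Nfkbia match runs from base -29 to -20, the Tnfaip3 matches begin at -125 and -12, and those of Nfkb2 at -39, -38 and -11. The Nfkb2 match at -39 was found on both strands.

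Because the values are scaled per transcript length, levels can be compared between genes. Nfkbia, which encodes IkappaB-alpha, had the highest mean over the 20 libraries (87.6 ± 36.0, SD), and it exceeded the next gene, Nfkb2, in 17 of them. Nfkb2 (59.1 ± 10.04), Birc3 (58.1 ± 32.2), Nfkb1 (46.6 ± 6.69) and Rela (44.6 ± 5.19) followed, and none of these neighbours was ahead of the next in more than 13 of 20 libraries. The place of Birc3 in this order differed between groups, since its mean lay below those of Nfkb1 and Rela in early WT (34.6 against 42.9 and 42.4) and above that of Nfkb2 in late Tnfr2-/- libraries (112 against 69.6). Rela exceeded Tnfaip3 (33.9 ± 14.0) in 16 libraries, whereas Tnfaip3 exceeded Relb (33.3 ± 8.78) in 8, so that this pair did not differ beyond its spread. Relb exceeded Nfkbiz (18.2 ± 4.65) in all 20 libraries. Nfkbiz and Traf2 (17.9 ± 2.41) were again not separated, with Nfkbiz ahead in 11 of 20. Birc3, Nfkbia and Tnfaip3 spread most widely over the libraries and Rela least among the 5 most abundant members.

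**Figure D1:**
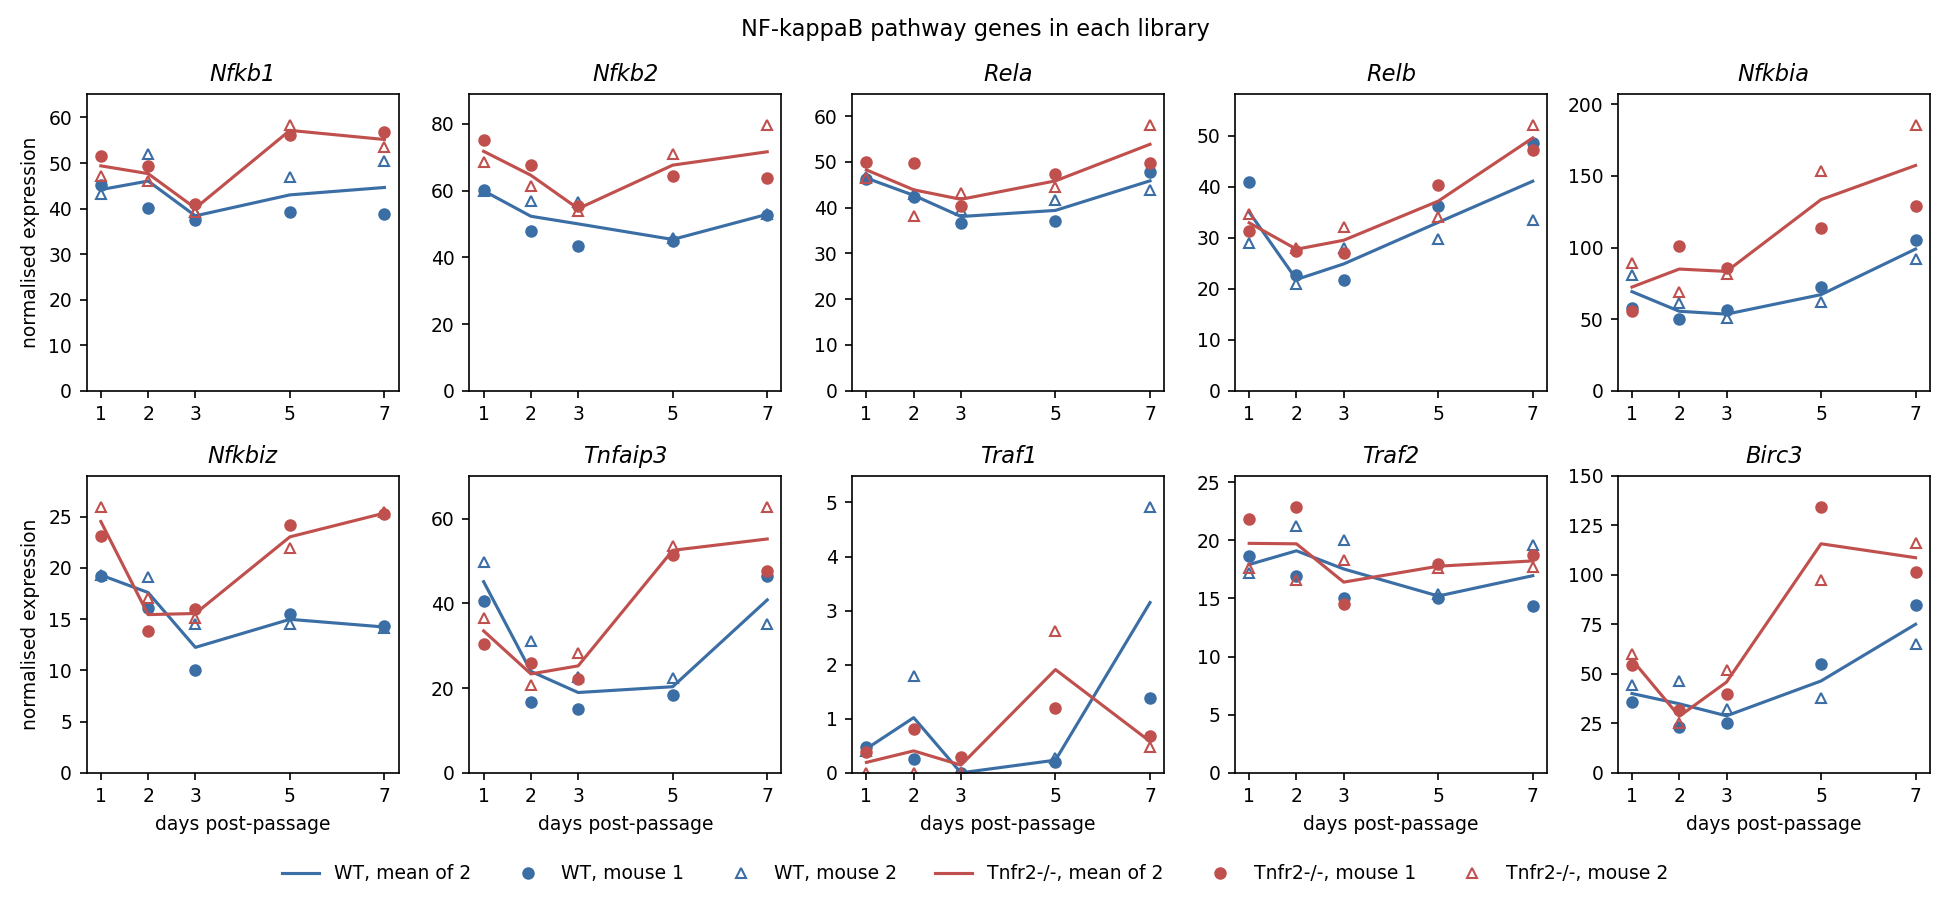
Normalised expression (y axis, linear from 0) of the 10 genes against days post-passage (x axis), with 1 point per library (filled circles mouse 1, open triangles mouse 2) and lines through the mean of the 2 mice, WT in blue and Tnfr2-/- in red. At DPP 5 and 7 the Tnfr2-/- points of Nfkb1, Nfkb2, Nfkbia, Nfkbiz, Tnfaip3 and Birc3 lie above every WT point, whereas those of Rela overlap with WT only between the days and those of Relb, Traf1 and Traf2 overlap with WT.

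In late colonoids the feedback genes stood higher without TNFR2. Nfkbia, Nfkbiz and Tnfaip3 rose by 1.75-fold, 1.61-fold and 1.84-fold on the log2(value + 1) scale, and Birc3 by 1.89-fold. Among the subunits, Nfkb2 rose by 1.41-fold. Thus 5 of the 9 tested members were higher in Tnfr2-/- cultures at an adjusted p under 0.05 and none was lower, whereas 3.8% of all 13539 genes were called higher and 2.64% lower. The median log2 difference of the 9 members was 0.49, against -0.05 over all genes tested. In 6 of the 9, every one of the 4 late Tnfr2-/- libraries exceeded every one of the 4 late WT libraries, which held for 5.35% of all genes tested. In bulk libraries, more RNA per cell and more cells of a type that expresses a gene cannot be told apart.

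Nfkbia binds RelA-p50 and returns it to the cytoplasm. Its values in WT were 72.6 (mouse 1) and 61.7 (mouse 2) at DPP 5, and 106 and 92.3 at DPP 7. In Tnfr2-/- cultures they were 113 and 154 at DPP 5, and 129 and 185 at DPP 7. Both mice of each genotype were higher at DPP 7 than at DPP 5, and the lowest Tnfr2-/- library (113) lay just above the highest WT library (106). The log2 difference over the late days was 0.81 (SE 0.188, adjusted p 0.0233), with late means of 83.0 ± 19.7 in WT and 145 ± 31.3 in Tnfr2-/- (SD over 4 libraries, 2 mice on 2 days).

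Tnfaip3 encodes A20, a ubiquitin-editing enzyme that dismantles the receptor complex. In WT it stood at 18.3 and 22.4 at DPP 5 and at 46.4 and 35.2 at DPP 7. In Tnfr2-/- cultures it stood at 51.5 and 53.6 at DPP 5 and at 47.8 and 62.7 at DPP 7. Both WT cultures lay far below at DPP 5, and at DPP 7 mouse 1 came near the lowest Tnfr2-/- value while mouse 2 stayed below it. The difference by day was 1.33 on the log2 scale at DPP 5 and 0.43 at DPP 7, and over both days it was 0.88 (SE 0.201, adjusted p 0.0219).

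Nfkbiz encodes IkappaB-zeta, a nuclear IkappaB protein that co-activates a subset of NF-kappaB targets. Its 4 late WT values were 15.5, 14.5, 14.3 and 14.2, in the order of mouse 1 and mouse 2 at DPP 5 and then at DPP 7. The corresponding Tnfr2-/- values were 24.2, 21.9, 25.2 and 25.5. Both sets were tight and well separated, with a log2 difference of 0.69 (SE 0.133, adjusted p 0.00931).

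Birc3 encodes cIAP2, a ubiquitin ligase of the receptor complex. In the same order, its WT values were 54.9, 37.9, 84.8 and 65.3. The Tnfr2-/- values were 134, 97.4, 101 and 116. The gap was widest at DPP 5, at 1.3 on the log2 scale against 0.54 at DPP 7, because the WT cultures rose between these days, and it was 0.92 over both (SE 0.21, adjusted p 0.0214). Traf2, the adaptor that carries cIAP to TNFR2, did not pass the test (log2 difference 0.16, SE 0.158, adjusted p 0.587). Its late means were 16.1 ± 2.37 in WT and 18.0 ± 0.519 in Tnfr2-/- (4 libraries of 2 mice each). Its values of 15.1, 15.4, 14.3 and 19.6 in WT spanned those of 18.0, 17.6, 18.8 and 17.7 in the knockout. Traf1, an adaptor that is itself an NF-kappaB target in many cells, lay between 0 and 4.91 and was at 0 in 5 of 20 libraries, 2 WT and 3 Tnfr2-/-. Without the filter on low values its late log2 difference was -0.03 (adjusted p 1).

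Nfkb2 encodes p100, the precursor of p52. Its late WT values were 44.8, 45.9, 52.8 and 53.0, and its Tnfr2-/- values were 64.4, 70.8, 63.7 and 79.5, again in the order of mouse 1 and mouse 2 at DPP 5 and then at DPP 7. The highest WT library lay below the lowest knockout library, and the log2 difference was 0.49 (SE 0.112, adjusted p 0.0206). Nfkb1, which encodes p105 and p50, had 39.2, 46.8, 38.9 and 50.4 in WT against 56.1, 58.3, 56.9 and 53.5. These groups did not overlap either, but the difference of 0.36 (SE 0.115) missed the threshold at an adjusted p of 0.0846. Rela, the main transactivating subunit, differed by 0.22 (SE 0.106, adjusted p 0.237), and its values of 37.1, 41.8, 47.8 and 43.9 in WT overlapped with 47.3, 44.5, 49.7 and 58.0 in Tnfr2-/-. Relb, the partner of p52, had 36.2, 29.8, 48.7 and 33.5 in WT and 40.4, 34.0, 47.1 and 52.0 in Tnfr2-/-, which overlapped widely (log2 difference 0.23, SE 0.153, adjusted p 0.411).

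The late calls rested on few animals. When each mouse was reduced to its mean over the late days, 2 mice against 2, the log2 differences were the same by construction, and 0 of the 9 members and 0 of all 13539 genes passed (5 members and 1896 genes at an unadjusted p under 0.05; adjusted p of the 5 members 0.226 to 0.290). Without 1 mouse, its genotype keeps 1 library per day, and the lone mouse is assumed to vary like the others. Calls of all genes were then fewest without Tnfr2-/- mouse 2 and most without WT mouse 2. A lost or kept call there is therefore no result about the members. The log2 differences without 1 mouse were 0.57 to 1.04 for Nfkbia, 0.77 to 0.99 for Tnfaip3 and 0.66 to 0.72 for Nfkbiz. They were 0.70 to 1.145 for Birc3 and 0.38 to 0.61 for Nfkb2. Nfkbiz kept its call without any single library. Nfkbia lost it without WT mouse 1 at DPP 5, WT mouse 2 at DPP 7 or Tnfr2-/- mouse 2 at DPP 5 or 7 (log2 difference 0.68 to 0.86, adjusted p 0.0611 to 0.0979), and Tnfaip3 without these or Tnfr2-/- mouse 1 at DPP 5 (0.78 to 0.89, 0.0616 to 0.0931). Nfkb2 lost it without WT mouse 1 at DPP 5 or Tnfr2-/- mouse 2 at DPP 5 or 7 (0.41 to 0.49, 0.0734 to 0.0891), and Birc3 without WT mouse 2 at DPP 7, Tnfr2-/- mouse 1 at DPP 5 or 7, or Tnfr2-/- mouse 2 at DPP 7 (0.81 to 0.97, 0.0527 to 0.0840). Nfkb1 gained a call without WT mouse 2 at DPP 5 (0.42, adjusted p 0.0499) or at DPP 7 (0.45, 0.0465).

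**Figure D2:**
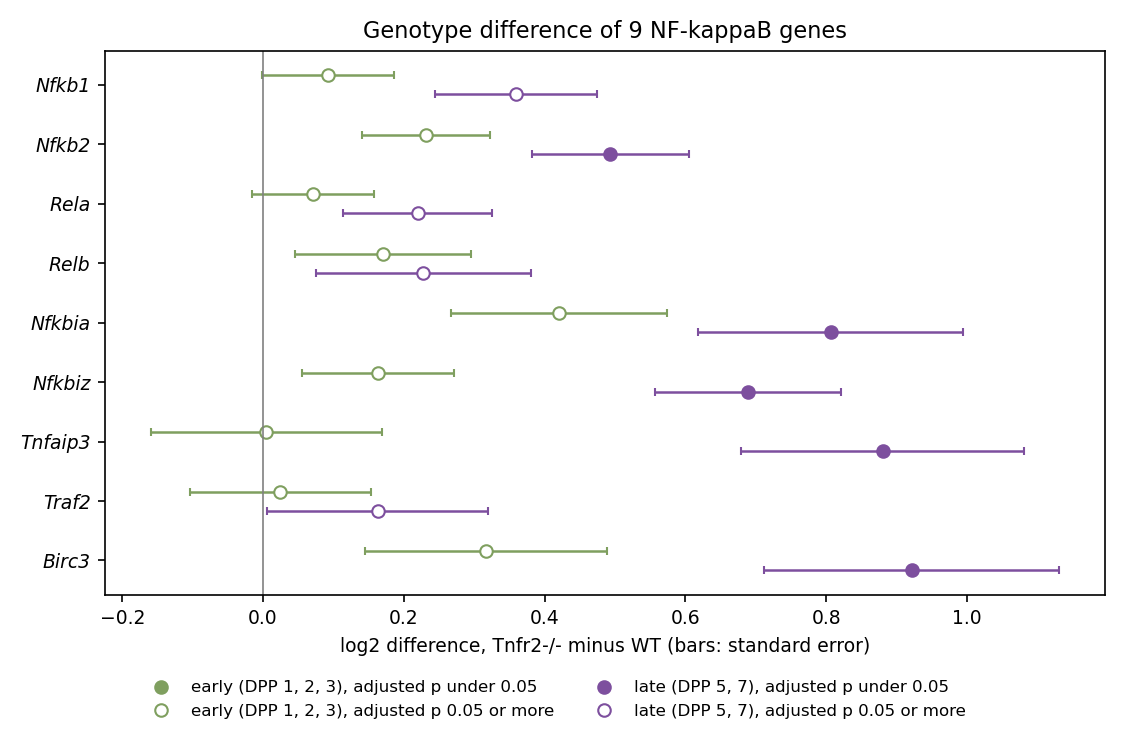
Log2 difference between Tnfr2-/- and WT (x axis) of the 9 tested genes (y axis) in early (green) and late (purple) colonoids, with bars of 1 standard error and filled points for an adjusted p under 0.05. All late points lie right of 0 and 5 are filled, from 0.49 for Nfkb2 to 0.92 for Birc3, and none of the early points is filled.

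Markers of other cell types were compared in the same late libraries. In Tnfr2-/- cultures 2 of 12 fibroblast markers and 2 of 4 tested immune cell markers were called higher, where 3.8% of all genes were. Of the 6 tested goblet and 8 epithelial markers, 0 were called, and the fibroblast and goblet sums overlapped between genotypes. All 12 fibroblast markers were expressed, and their summed level was 1402 to 4774 in late WT and 4032 to 9932 in late Tnfr2-/- libraries, against 2319 to 4737 and 3345 to 5050 early. The rise in the knockout was concentrated at DPP 7, where its libraries reached 9041 and 9932 against 2139 and 4774 in WT. Summed goblet cell markers (7 genes) were 266 to 2294 in late WT and 202 to 306 in late Tnfr2-/- libraries, highest in WT mouse 1. The immune marker sum was higher in both Tnfr2-/- libraries than in both WT libraries on each day. Early, it was 14.6 to 122 in WT and 34.6 to 174 in Tnfr2-/- libraries. Of 14 immune cell markers, 4 had a mean of at least 1, and the sum was 15.2 to 34.3 in late WT and 78.2 to 147 in late Tnfr2-/- libraries. Of these, S100a8 (3.63, SE 0.543, adjusted p 0.00199) and Cd68 (1.35, SE 0.243, adjusted p 0.00640) rose, and Csf1r, a receptor gene of macrophages, had late means of 3.91 in WT and 5.88 in Tnfr2-/- (0.53, SE 0.344, adjusted p 0.387) and was higher over all days (0.76, SE 0.201, adjusted p 0.0285). Lyz2, the last of the 4, had late means of 0.870 and 1.34 (0.28, SE 0.464, adjusted p 0.766). The remaining 10 did not reach a mean of 1, and among them the pan-leukocyte gene Ptprc had late means of 0.0648 in WT and 0.0622 in Tnfr2-/-. Summed epithelial markers overlapped, at 14860 to 18280 in WT and 13460 to 19000 in Tnfr2-/-. The part of these cell types in the differences of the NF-kappaB genes was not tested.

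**Figure D3:**
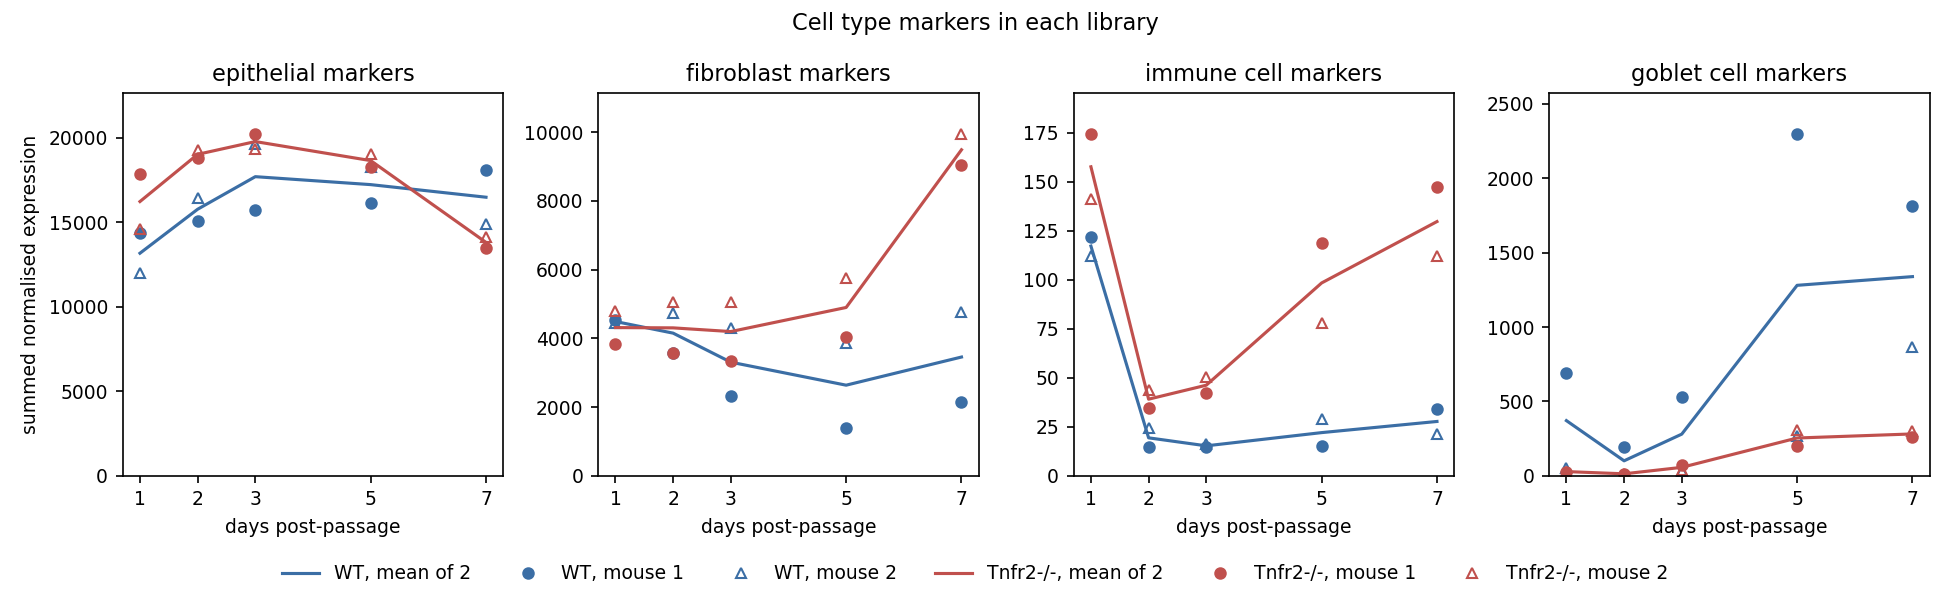
Summed normalised expression (y axis, linear from 0) of epithelial, fibroblast, immune cell and goblet cell markers against days post-passage (x axis), 1 point per library with symbols as for the gene levels and lines through the mean of 2 mice. Fibroblast sums of both Tnfr2-/- mice are highest at DPP 7 (9041 and 9932), goblet sums are highest in WT mouse 1, and immune sums of both Tnfr2-/- mice exceed WT on each day.

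In early colonoids none of the 9 members passed the test (0 called, 2 at an unadjusted p under 0.05), and 0.768% of all genes were called higher and 0.428% lower. All 9 differences were above 0, with a median of 0.16, as were 48.06% of the differences over all genes tested. Nfkbia had 49.97, 56.9 and 80.7 as lowest, median and highest of 6 early WT libraries and 55.4, 83.3 and 101 in Tnfr2-/- (0.42, SE 0.153, adjusted p 0.248), and Nfkb2 had 43.3, 56.8 and 60.1 against 53.9, 64.6 and 75.1 (0.23, SE 0.091, adjusted p 0.287). Tnfaip3 differed by 0.005 (SE 0.165), as its higher WT values at DPP 1 (40.5 and 49.8, against 30.4 and 36.7) offset lower ones at DPP 3 (15.2 and 22.7, against 22.2 and 28.3). No member had every early Tnfr2-/- library above every early WT library, a pattern held by 0.576% of all genes. The direction of the early Tnfaip3 and Traf2 differences turned when single libraries or mice were left out (-0.28 to 0.29 and -0.07 to 0.12).

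Whether the late difference exceeded the early one was tested as an interaction. None of the 9 members passed (0 called, 3 at an unadjusted p under 0.05), while 0.118% of all genes were called higher and 0.0295% lower. The estimates were largest for Tnfaip3 (0.88, SE 0.26, adjusted p 0.212), Birc3 (0.60, SE 0.271, adjusted p 0.409) and Nfkbiz (0.53, SE 0.171, adjusted p 0.252). The late calls are therefore not shown to be specific to the late phase.

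Over all days, with day as a factor, 4 of the 9 members were higher in Tnfr2-/- cultures and none lower, against 4.51% and 3.09% of all genes. Nfkbia rose by 1.49-fold (log2 difference 0.58, SE 0.127, adjusted p 0.011), Birc3 by 1.47-fold (0.56, SE 0.164, adjusted p 0.045), Nfkbiz by 1.3-fold (0.37, SE 0.108, adjusted p 0.0417) and Nfkb2 by 1.26-fold (0.34, SE 0.0718, adjusted p 0.00933). Nfkb1 (0.20, adjusted p 0.110), Relb (0.19, 0.226), Rela (0.13, 0.231), Tnfaip3 (0.36, 0.251) and Traf2 (0.08, 0.657) did not pass. In the same comparison 3 of 12 fibroblast, 2 of 8 epithelial and 3 of 4 tested immune cell markers were called higher. Of 6 tested goblet markers, 1 was called lower. The part of these cell types in the member differences was not tested. With the mouse as a correlated block, Nfkb2 and Nfkbia kept their calls (adjusted p 0.0267 and 0.0316), and Nfkbiz (0.0933) and Birc3 (0.103) lost them. Nfkb2 lost its call with the most abundant transcript alone (0.28, adjusted p 0.261), Nfkbiz (0.0606) and Birc3 (0.0797) lost theirs without the filter on low values, and Birc3 also without a mean-variance trend (0.0567). No member was called on mouse means (0.240 to 0.404 for these 4). Leaving out single libraries ended no call of Nfkb2 or Nfkbia, whereas Nfkbiz was kept only without WT mouse 1 at DPP 2, WT mouse 2 at DPP 2 or 3, or either Tnfr2-/- mouse at DPP 2 (otherwise 0.34 to 0.39, adjusted p 0.0502 to 0.0845). Birc3 was kept only without WT mouse 1 at DPP 7, WT mouse 2 at DPP 1 or 2, or either Tnfr2-/- mouse at DPP 2 (otherwise 0.47 to 0.58, 0.0520 to 0.0883). Nfkb1 gained a call without WT mouse 2 at DPP 2 (0.24, adjusted p 0.0442). When 1 mouse was left out, calls of all genes were again fewest without Tnfr2-/- mouse 2 and most without WT mouse 2. The log2 differences were then 0.47 to 0.68 for Nfkbia, 0.49 to 0.63 for Birc3, 0.31 to 0.44 for Nfkbiz and 0.27 to 0.40 for Nfkb2.

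The time course within each genotype showed which members changed as the colonoids matured. In Tnfr2-/- cultures 5 of the 9 members were higher late than early and none lower, where 10.4% of all genes were called higher and 9.93% lower. Birc3 rose by 2.62-fold, from 43.9 ± 13.7 (6 libraries of 2 mice) to 112 ± 16.7 (4 libraries of 2 mice), with a log2 difference of 1.39 (SE 0.192, adjusted p 3.83e-04). Tnfaip3 rose by 1.96-fold (0.97, SE 0.184, adjusted p 0.00276), Nfkbia by 1.80-fold (0.85, SE 0.172, adjusted p 0.00406), Relb by 1.42-fold (0.50, SE 0.14, adjusted p 0.0218) and Nfkbiz by 1.32-fold (0.40, SE 0.121, adjusted p 0.0317). In each of the 5, both knockout mice rose, for instance by 1.48 and 1.29 for Birc3 and by 0.91 and 1.03 for Tnfaip3.

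In WT cultures only Birc3 and Relb were higher late than early, 2 of 9, with 11.6% of all genes called higher and 8.52% lower. Birc3 rose by 1.72-fold, from 34.6 ± 9.60 to 60.7 ± 19.6 (0.78, SE 0.192, adjusted p 0.0123), by 1.27 in mouse 1 and 0.29 in mouse 2. Relb rose by 1.36-fold, from 27.2 ± 7.55 to 37.1 ± 8.18 (0.45, SE 0.14, adjusted p 0.0389). Nfkbia differed by 0.47 (SE 0.172, adjusted p 0.0724), Tnfaip3 by 0.09 (SE 0.184, adjusted p 0.763) and Nfkbiz by -0.12 (SE 0.121, adjusted p 0.507). In WT, Tnfaip3 was high at DPP 1 (40.5 and 49.8), lowest at DPP 3 in mouse 1 (15.2) and at DPP 5 in mouse 2 (22.4), and high again at DPP 7 (46.4 and 35.2), so that a contrast of late against early averages over a trough. The subunits Nfkb1, Nfkb2 and Rela passed in neither genotype. In WT the Nfkb1 and Rela estimates were 0.03 and 0.007 and turned to -0.04 and -0.06 when libraries were set to a common median.

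Cell type markers moved over the same days. Of the 6 tested goblet markers, 4 rose in WT and 4 in Tnfr2-/- cultures, among them the mucin gene Muc2 (4.31, SE 1.03, adjusted p 0.0112, and 3.21, SE 1.03, adjusted p 0.0423). The median goblet marker sum was 122 in early and 1339 in late WT libraries and 28.5 and 282 in Tnfr2-/-, and the epithelial gene Epcam rose in both genotypes (1.33 in WT, 1.57 in Tnfr2-/-, SE 0.129 each, adjusted p 8.35e-05 and 4.22e-05). The median fibroblast marker sum was 4374 and 3006 in WT and 4313 and 7403 in Tnfr2-/-. The part of these cell types in the changes of the NF-kappaB genes was not tested.

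In both genotypes some of these calls depended on the processing or on single libraries. On within-mouse means, 0 WT members (3 at an unadjusted p under 0.05; adjusted p 0.0817 for Birc3 and 0.0958 for Relb) and 3 Tnfr2-/- members, namely Birc3, Tnfaip3 and Nfkbia, passed (adjusted p 0.0207 to 0.0281). WT Birc3 lost its call without WT mouse 1 at DPP 5 or 7 (0.65 and 0.69, adjusted p about 0.063). WT Relb lost it without WT mouse 1 at DPP 2, 3, 5 or 7, WT mouse 2 at DPP 1 or 2, or either Tnfr2-/- mouse at DPP 2 or 7 (0.31 to 0.46, 0.0502 to 0.186). In the knockout, the calls of Birc3, Tnfaip3 and Nfkbia held without any single library. Relb lost its call without Tnfr2-/- mouse 1 at DPP 1, 3 or 5 or mouse 2 at DPP 7 (0.44 to 0.48, 0.0527 to 0.0928), and Nfkbiz without any Tnfr2-/- library other than those of mouse 2 at DPP 1 and 2 (0.36 to 0.44, 0.0558 to 0.111). With the most abundant transcript alone, Relb turned to -0.083 in the knockout (adjusted p 0.967), where Nfkbiz also lost its call (0.38, 0.0613), and in WT Relb lost its call (0.62, 0.702), as it did with a common median (0.38, 0.0625) and without the filter on low values (0.0531). Leaving out 1 mouse leaves its genotype 1 library per day, so only log2 differences are given for that setting. In Tnfr2-/- cultures they were 1.29 to 1.48 for Birc3, 0.91 to 1.03 for Tnfaip3 and 0.63 to 1.08 for Nfkbia. They were 0.41 to 0.60 for Relb and 0.31 to 0.49 for Nfkbiz. In WT cultures they were 0.29 to 1.27 for Birc3 and 0.28 to 0.61 for Relb. With the mouse as a correlated block Nfkb1 was also called in Tnfr2-/- cultures (0.30, adjusted p 0.0411), as it was without either WT mouse at DPP 2 or 7 (0.30, 0.0440 to 0.0485).

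**Figure D4:**
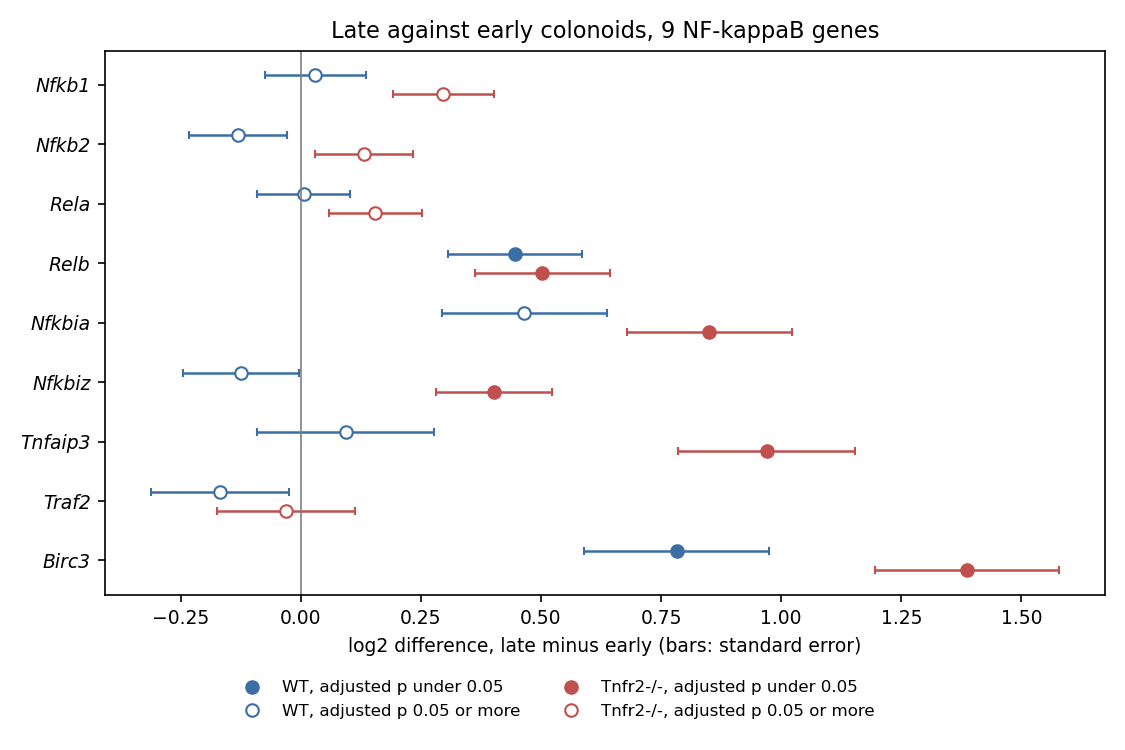
Log2 difference between late and early colonoids (x axis) of the 9 tested genes (y axis) in WT (blue) and Tnfr2-/- (red), with bars of 1 standard error and filled points for an adjusted p under 0.05. Birc3 and Relb are filled in both genotypes, and Nfkbia, Nfkbiz and Tnfaip3 in Tnfr2-/- only, and no member passed the test of the difference between the genotypes' changes.

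The gene sums pool several annotated transcripts. Rela had 1 transcript and Nfkb2 had 2, both protein-coding, whereas Nfkb1 and Relb had 10 each. For Nfkbia the coding transcript held 75.85% of the mean and a retained-intron transcript 24.15%. In late cultures the coding transcript averaged 53.3 in WT and 116 in Tnfr2-/-, and the retained-intron transcript 29.8 and 29.9. Early, the coding transcript averaged 48.5 and 60.5 and the retained-intron transcript 10.9 and 19.8. For Birc3 the coding forms held 57.7% of the sum, and the main coding transcript averaged 30.6 in late WT and 57.4 in late Tnfr2-/- libraries. An Nfkb1 transcript annotated for nonsense-mediated decay rose from 5.61 early to 20.7 late in Tnfr2-/- means and from 6.32 to 11.7 in WT, while the main coding transcript averaged 13.6 and 12.9 late. All coding forms together held 40.9% of the Nfkb1 sum in late Tnfr2-/- and 50% in late WT libraries, so that its late genotype difference lay mostly in forms that are not annotated as coding. These shares are estimates of the quantification model for reads that transcripts share, and were not tested. With the most abundant transcript alone in place of the sum, 3 of 9 members were called in late colonoids, Nfkb2 (0.61, adjusted p 0.0735) and Tnfaip3 (0.96, 0.0543) losing the call, and the Relb late difference turned to -0.10.

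Over the 20 libraries the 36 pairs among the 9 members had Pearson r from -0.106 to 0.819 on the log2 scale, with a median of 0.614. These libraries share mice, days and genotypes, and the values are a description. Tnfaip3 and Birc3 (0.819), Nfkbia and Birc3 (0.806) and Rela and Tnfaip3 (0.789) were the closest pairs. The lowest 3 pairs were those of Traf2 with Relb (-0.106), Nfkbia (-0.0306) and Birc3 (0.0339), while Traf2 reached 0.549 with Nfkb2, 0.507 with Nfkb1 and 0.424 with Rela. Among 8571 genes with a mean of at least 10 in each genotype, the genes outside the set whose pattern was most like a member were Dusp1 (r 0.942) and Mmp10 (0.925) for Tnfaip3, Adam10 (0.926) and Optn (0.916) for Birc3, C9orf72 (0.922) and Vegfa (0.904) for Nfkbia, and Ndfip2 (0.92) and Cited2 (0.889) for Relb. For the others they were Ext1 (0.888) and Fxyd5 (0.885) for Nfkbiz, Tpm4 (0.870) and Capns1 (0.862) for Nfkb2, Zyx (0.847) and Cemip2 (0.834) for Rela, Aldh1a3 (0.820) and Snap23 (0.811) for Nfkb1, and Tmem184b (0.797) and Zeb2 (0.753) for Traf2. Tnf itself correlated with Birc3 at 0.841, with Nfkbia at 0.795, with Tnfaip3 at 0.742 and with Traf2 at -0.0412.

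Tnf, the ligand, was also higher in late Tnfr2-/- cultures. It had 7.10 and 13.04 in WT at DPP 5 and 22.3 and 19.8 at DPP 7, against 34.2 and 28.3 at DPP 5 and 37.0 and 35.5 at DPP 7 in Tnfr2-/- cultures. Every late knockout library was above every late WT library, and the difference was 1.18 on the log2 scale (SE 0.292, adjusted p 0.0302), while the early one was 0.26 (SE 0.238, adjusted p 0.718). The other TNF receptor, Tnfrsf1a, varied from 59.8 to 220 over the libraries and did not pass in any of the 6 comparisons (late 0.11, SE 0.351, adjusted p 0.893). Of the 14 receptors and ligands of the pathway, 11 were tested, and late Tnfr2-/- cultures had 3 higher and 1 lower, where 3.8% of all genes were called higher and 2.64% lower. Those higher were Tnfrsf9, which encodes the T cell co-stimulatory receptor 4-1BB (3.83, SE 0.42, adjusted p 2.21e-04), Tnf and Tnfrsf12a, which encodes the TWEAK receptor (0.52, SE 0.146, adjusted p 0.0493), and the lower one was Tnfrsf1b itself (-0.79, SE 0.199, adjusted p 0.0323). On mouse means 0 late genes were called, so that neither these late genotype calls nor those of the lists below held there. Within Tnfr2-/- cultures, where 10.4% of all genes rose, 4 of the 11 rose from early to late, namely Tnf (1.69, adjusted p 8.65e-04), Tnfrsf9 (2.39, 0.00100), Tnfrsf1b (1.02, 0.00191) and Tnfsf11, which encodes RANKL (1.63, 0.00412), and in WT, where 11.6% of all genes rose and 8.52% fell, Tnfrsf11a rose (1.22, 0.0311) and Cd40 fell (-1.17, 0.0483).

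The remaining components of the pathway were described by list. None of the 5 other subunits and IkappaB proteins (Rel, Nfkbib, Nfkbie, Nfkbid and Bcl3) and none of the 11 IKK and upstream kinases was called early, late or over all days. Of all genes, 0.768% were called higher and 0.428% lower early, 3.8% and 2.64% late, and 4.51% and 3.09% over all days. The late estimate of Nfkbie, which encodes IkappaB-epsilon and was singled out after its values were seen, was 0.80 (SE 0.346, adjusted p 0.186). Of the 10 receptor adaptors and ubiquitin enzymes, 1 was called in late colonoids, Rbck1, which encodes the LUBAC subunit HOIL-1 (-0.83, SE 0.21, adjusted p 0.0318). Of the 8 partners of A20 and deubiquitinases, 2 were higher in late Tnfr2-/- cultures, the A20-binding gene Tnip3 (0.70, SE 0.121, adjusted p 0.00543) and Rnf11 (0.42, SE 0.111, adjusted p 0.0384), a member of the A20 complex. Tnip3 was also higher over all days (0.49, SE 0.0832, adjusted p 0.00180), 1 of 8 where 4.51% of all genes were called higher. Their median late differences were 0.08, -0.13, 0.08 and 0.08 in the order given, against -0.05 over all genes. From early to late, 11.6% of all genes rose in WT and 10.4% in Tnfr2-/- cultures. Of the 11 kinase components 2 rose in each genotype, of the 10 adaptors 0 in WT and 3 in Tnfr2-/-, and of the 8 A20 partners and deubiquitinases 3 in WT, where 1 fell, and 4 in Tnfr2-/-. The kinase components Tab2 and Ikbkg rose in WT (0.32 and 0.59) and in Tnfr2-/- cultures (0.54 and 0.58; adjusted p 7.50e-04 to 0.0358 over the 4 values), Ripk1 (0.36), Traf6 (0.44) and Birc2 (0.58) rose in the knockout (adjusted p 0.0155 to 0.0283), and Tnip1 and Tax1bp1 rose in both (0.41 to 0.71, adjusted p 0.00195 to 0.0170). Tnip3 rose in both as well (0.34 and 0.69), Rnf11 rose in the knockout (0.43, adjusted p 0.00974), and Otulin, which encodes a deubiquitinase of linear chains, fell in WT (-0.43, adjusted p 0.0480).

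Of 30 classical NF-kappaB target genes, 26 were tested, and in late colonoids 9 were higher in Tnfr2-/- cultures and none was lower, with a median log2 difference of 0.76 against -0.05 over all genes tested. Of all genes, 3.8% were called higher and 2.64% lower. The list was chosen with earlier results of these data known. In the study's own pathway analysis, WT cultures were instead relatively enriched for chemokine and TNF signalling. Il6, which encodes interleukin 6, was at 0 to 3.95 in the 4 late WT libraries and at 24.4 to 44.5 in the late knockout libraries (4.58, SE 0.417, adjusted p 5.53e-05). Ier3, an early response gene, was at 138.5 to 307 against 553 to 608 (1.46, SE 0.162, adjusted p 2.35e-04). Csf3, which encodes G-CSF, was at 0.491 to 2.27 against 10.9 to 14.5 (2.58, SE 0.335, adjusted p 7.89e-04), and Ptgs2, which encodes cyclooxygenase 2, was at 44.2 to 214 against 412 to 560 (2.27, SE 0.318, adjusted p 0.00129). The other 5 called genes had adjusted p-values above that of Ptgs2. Early, 1 of 26 was called higher (Ier3, 0.65, SE 0.132, adjusted p 0.0298) where 0.768% of all genes were, and over all days 8 were, against 4.51% of all genes, led by Ier3 (0.98), Il6 (2.55), Ccl2 (1.51) and Cxcl2 (1.46). The interaction was called for 1 of 26, Il6 (3.38, SE 0.538, adjusted p 0.0403), and for 0.118% of all genes in this direction. From early to late, 12 of 26 rose and none fell in Tnfr2-/- cultures (10.4% and 9.93% of all genes), led by Nos2 (2.69), Il6 (3.04), Cxcl2 (2.08) and Ier3 (0.87). In WT, with 11.6% of all genes rising and 8.52% falling, 2 rose (Nos2 by 2.19 and Ccl5 by 1.45) and 3 fell (Ccl2 at -1.83, Ptgs2 at -1.12 and Csf3 at -1.10). The fibroblast and immune sums given above come from the same late libraries, and their part in these differences was not tested.

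**Figure D5:**
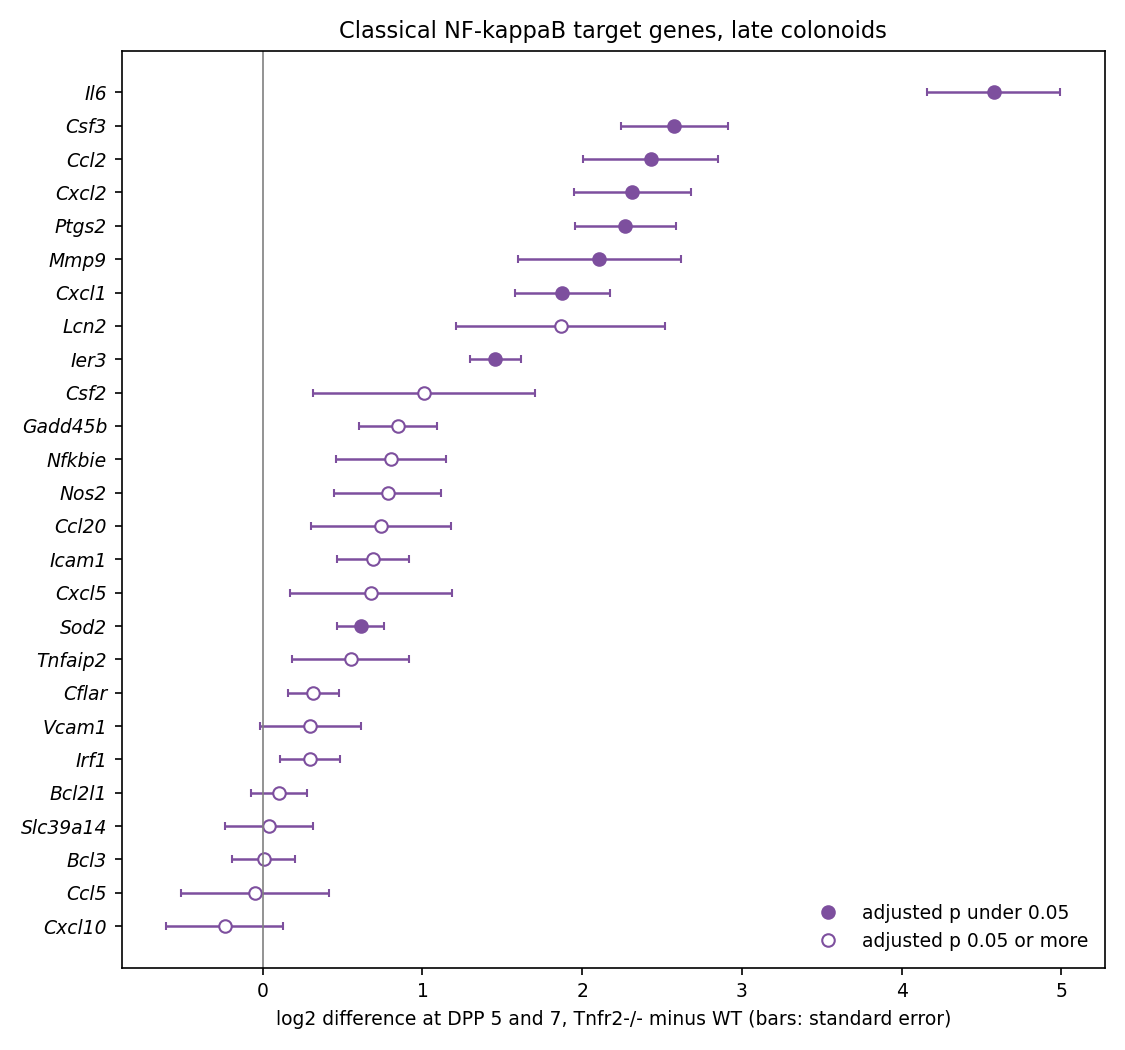
Log2 difference between Tnfr2-/- and WT in late colonoids (x axis) of 26 tested classical NF-kappaB target genes (y axis), with bars of 1 standard error and filled points for an adjusted p under 0.05. Il6 (4.58) is the largest of the 9 filled points, and 24 of the 26 points lie right of 0.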

How the data were processed

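The deposited table holds 1 signal per transcript and library for 20 libraries. Reads were 75 bases, single-end and stranded, and per the labels were handled with CASAVA, quantified by kallisto (mm10) and analysed in sleuth; the signal is the TPM that the authors scaled by sleuth's size factors. The study's methods give only an approximate read number common to all samples, and the table does not give the depth of each library, so no counting interval is printed. The same table holds p-values and q-values, a mean on the natural log scale and other test statistics, such as variance terms, deposited by the authors from their own genotype test, which were not used. Of 113974 lines, 781 repeated another with identical values and were dropped. The remaining 113193 transcripts were summed per gene symbol, and 199 without a symbol, at most 0.0989% of a library, were left out. Gene coordinates are from GENCODE M21 and promoters from RefSeq.

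Linear models were fitted in limma 3.58.1 (R 4.3.3) to log2(value + 1) of 13539 genes with a mean of at least 1, with a mean-variance trend and Benjamini-Hochberg adjustment over all of them; an adjusted p under 0.05 is a call. Log2 differences understate changes of low genes. For all days together the model held day and genotype as additive terms, and the other 5 comparisons were contrasts of 10 group means. The script was tested on simulated data. The 10 genes, the pathway lists and the marker lists were chosen with earlier results of these data known. Named from the pathway lists were Tnfrsf1b, Tnf, Tnfrsf1a and, per list and comparison, at most the 4 called genes of lowest adjusted p; Nfkbie was added after its values were seen. Libraries with 1 number and genotype were read as 1 mouse, which the labels do not state; their deviations from group means correlated at 0.0997 to 0.307 in WT and -0.0511 to 0.08 in Tnfr2-/-, and same-numbered WT and Tnfr2-/- libraries at -0.0536 to 0.0761. Replicates within a group correlated at 0.923 to 0.956. Alternatives were another pseudocount (0.1), no filter or a minimum mean of 5, a common median, no trend, the mouse or the replicate number as a block, mouse means, the most abundant transcript alone, and leaving out each library or mouse.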

Additional observations from a re-analysis of the deposited data

Results flagged for a closer look

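Within the 6 early WT libraries, 1 library stood apart from the other 5 in Nfkbia and 1 in Traf1, by the gap to its nearest neighbour over the group's range (Dixon's ratio 0.64 and 0.728). Nfkbia was at 80.7 in WT mouse 2 at DPP 1, with the next library at 61.0. Traf1 was at 1.79 in WT mouse 2 at DPP 2, with the next at 0.487. Chance flags about 1 in 20 groups, and 40 groups were examined, so that these 2 are as many as chance would give. No member showed a tested difference between the early and late genotype effects.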

How the results depend on the processing

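With 2 mice per genotype, the spread between animals is poorly known, and p-values over libraries treat the days of a mouse as independent; that the numbers name the same mouse on all days is a reading of the labels. The depth of each library is not in the table. The scaling of libraries to a common median moved the median of all genes by at most 0.07 (log2). The cause of each change below was not tested.

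The mouse as a correlated block (estimated correlation 0.0588 and 0.0929) gave 545 genes and 2 members over all days and 47 genes in the interaction, which had 1029, 4 and 20 without it. The replicate block by number gave 280 early genes against 162 and 96 in the interaction, and changed no member's call; same-numbered WT and Tnfr2-/- libraries share only a number. Mouse means gave 7 genes and 0 members over all days, 3 early genes, 0 late genes and 0 late members, 1 gene in the interaction, 1728 genes and 0 members from early to late in WT, and 1790 genes and 3 members in Tnfr2-/-. Without the filter on low values, 2 members were called over all days, 55 genes in the interaction and 1 member from early to late in WT, and the common median also left 1 there. A pseudocount of 0.1 gave 10 genes in the interaction. The most abundant transcript alone gave 3 late members, 1 member from early to late in WT and 3 in Tnfr2-/-.

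The direction turned for Nfkb1 and Rela from early to late in WT with a common median (-0.040 and -0.064). With the most abundant transcript alone it turned for Relb late (-0.10), in the interaction (-0.70) and from early to late in Tnfr2-/- (-0.083), and for Nfkb1 from early to late in WT (-1.04) and Tnfr2-/- (-0.85).

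Leaving out each library or mouse, the number of called genes ranged from 146 to 1931 over all days, 14 to 720 early, 19 to 2186 late, 0 to 136 in the interaction, 1043 to 2893 from early to late in WT and 2 to 3430 in Tnfr2-/-. Called members ranged from 0 to 5 over all days, 0 to 6 late, 0 to 2 from early to late in WT and 0 to 6 in Tnfr2-/-, and stayed at 0 early and in the interaction. The direction turned, over these settings, for Traf2 over all days (-0.024 to 0.18), early (-0.074 to 0.12) and from early to late in Tnfr2-/- (-0.10 to 0.043), for Tnfaip3 early (-0.28 to 0.29) and from early to late in WT (-0.22 to 0.41), and for Relb in the interaction (-0.10 to 0.22). From early to late it also turned in WT for Nfkb1 (-0.063 to 0.12), Nfkbiz (-0.27 to 0.025) and Rela (-0.035 to 0.049), and in Tnfr2-/- for Nfkb2 (-0.032 to 0.30).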
